A study of Mus musculus with 12 samples.

Results

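The genes followed here encode the enzymes that set and remove methyl groups on DNA and on lysine K27 of histone H3. They are the DNA methyltransferases Dnmt1, Dnmt3a and Dnmt3b, the maintenance factor Uhrf1, the methylcytosine oxidases Tet1, Tet2 and Tet3, the histone methyltransferase Ezh2, and the histone demethylases Kdm6a and Kdm6b. They were chosen by symbol, with earlier results of these data known, and were 10 of the 54532 gene IDs counted, and all 10 were found and passed the low-count filter. Messenger RNA was sequenced from bone marrow haematopoietic stem and progenitor cells (HSPCs), the cells from which the blood lineages arise, in 12 libraries. The 4 groups of 3 were aged HSPCs cultured with uridine, aged HSPCs cultured with vehicle, aged HSPCs without culture, and young HSPCs without culture. Uridine is a nucleoside from which cells make pyrimidine nucleotides. All animals were labelled wild type. The strain label was c57bl/6 for the vehicle libraries and counted up from c57bl/7 to c57bl/15 over the other 9, so the strain is uncertain. The sources used here give neither the ages of the mice nor the sort markers, time in culture or dose of uridine, and do not say if libraries within a group had separate animals or cultures as their origin. The p-values therefore reflect how far libraries of a group differ, and that difference may be technical in origin.

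Methylation of cytosine in CpG dinucleotides is copied onto each new DNA strand by DNMT1, which UHRF1 brings to half-methylated sites at the replication fork, while DNMT3A and DNMT3B place methyl groups at unmethylated sites. TET proteins oxidise methylcytosine, which starts its removal. EZH2 is the catalytic subunit of Polycomb repressive complex 2 (PRC2) and methylates H3K27, a mark of silenced genes, and KDM6A (UTX) and KDM6B (JMJD3) take that mark off. In haematopoiesis DNMT3A and TET2 are known for the mutations found in clonal expansion of blood cells with age, and EZH2 and KDM6A for mutations in leukaemia.

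Levels are given as CPM, read counts scaled to 1000000 per library after TMM correction of the library size, and a level per kb is the CPM divided by the summed exon length of the gene in kb. The summed length covers all annotated exons and can differ from that of the transcripts expressed, so levels per kb of different genes compare only roughly. The deposited counts totalled 16785065 to 19025802 per library. The members had between 177 counts (Tet1 in an uncultured aged library) and 13683 counts (Dnmt1 in a young library). Stem and progenitor markers were present in every group, with the 13 genes of the list, among them Kit, Cd34 and Flt3, summing to 1719 to 1778 CPM in uridine cultures, 1905 to 1928 CPM in vehicle cultures, 1450.4 to 1470.5 CPM in uncultured aged cells and 1555 to 1591 CPM in young cells. Markers of other cells moved with the groups. The 7 plasma cell markers summed to 699 to 724 CPM in uridine cultures, 1037 to 1085 CPM in vehicle cultures, 25459 to 25705 CPM in uncultured aged cells and 628 to 637 CPM in young cells. Immunoglobulin genes took 21.6 to 21.9% of the counts in uncultured aged cells against 0.540 to 0.544% in young cells. With these genes left out the 10 members were still all called lower with age. That fit keeps all other RNA of the cells that made them, so it checks the scaling and cannot show the part of cell makeup. The 10 markers of maturing neutrophils summed to 2061 to 2129.8 CPM in uridine cultures, 319 to 328 CPM in vehicle cultures, 555 to 596 CPM in uncultured aged cells and 5484 to 5696 CPM in young cells. The 10 erythroid markers summed to 158 to 160.0, 7.09 to 10.1, 173 to 185 and 462 to 468 CPM in the same order of groups, and in vehicle cultures Slc4a1 had 0 counts (which allows up to 0.0546 CPM over the group) and 7 of the 10 were under 1 CPM. The 10 B cell markers summed to 273 to 289, 46.4 to 48.8, 2076 to 2154 and 769 to 774 CPM, the 10 T and natural killer cell markers to 71.1 to 73.9, 44.2 to 47.3, 248 to 275 and 131 to 134 CPM, and the 8 stromal and endothelial markers to 274 to 281, 145 to 146, 119 to 130.2 and 636 to 664 CPM. The 10 monocyte and macrophage markers summed to 3709 to 3769.5, 5559 to 5635, 1105 to 1116 and 1963 to 2029.7 CPM. The sums do not show each list's members. With age all 7 plasma cell markers were called higher and all 10 neutrophil and all 10 erythroid markers lower. Of the B cell markers 6 were higher and 4 lower, and of the stem and progenitor markers 5 and 5. For T and natural killer cells 7 were higher and 1 lower, for monocytes and macrophages 2 and 4, and for stroma and endothelium 2 and 5. With uridine against vehicle all 10 erythroid and all 10 B cell markers were called higher. The numbers higher and lower there were 9 and 1 for neutrophils, 9 and 0 for T and natural killer cells, and 1 and 8 for monocytes and macrophages. They were 5 and 1 for stroma and endothelium, 2 and 3 for plasma cells, and 2 and 6 for stem and progenitor cells. In vehicle cultures against uncultured aged cells 7 of the 8 stromal and endothelial markers were called lower, and the endothelial receptor gene Kdr alone was higher, at 43.5 ± 0.820 CPM in vehicle cultures and 0.961 ± 0.576 CPM in uncultured aged cells. All 7 plasma cell, 10 B cell, 10 T and natural killer cell and 10 erythroid markers were also called lower in that comparison. Those called higher and lower were 1 and 8 for neutrophils, 8 and 2 for monocytes and macrophages, and 5 and 2 for stem and progenitor cells. The part of this cell makeup in the differences below was not tested, and in bulk RNA fewer expressing cells and less RNA per cell cannot be told apart.

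All 10 genes were lower in uncultured aged than in uncultured young cells. In culture with vehicle 7 of them stood higher than in uncultured aged cells, 1 (Kdm6b) stood far lower and 2 were not called, and with uridine 8 stood higher than with vehicle, 1 (Dnmt3a) lower and 1 (Dnmt3b) was not called. A call needed a Benjamini-Hochberg adjusted p below 0.05 over the 16675 genes tested, from the quasi-likelihood test of edgeR. With age, 10 of 10 fell and 0 rose, where 32.1% of all genes tested fell and 33.2% rose, and the libraries of the groups did not overlap for 10 of 10 members and 66.9% of all genes. The median log2 fold change was -0.70 over the members and 0.02 over all genes. Of the 10, 8 rose and 1 fell in uridine against vehicle cultures (all genes 20.0% and 18.1%), with a median of 0.31 against -0.0011. In vehicle cultures against uncultured aged cells 7 rose and 1 fell (all genes 35.4% and 35.1%), with a median of 0.46 against -0.01, and the groups did not overlap for 8 members and 71.5% of all genes. The comparison of vehicle cultures with uncultured aged cells shares its libraries with both other comparisons.

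The members are long genes, with 4259 (Uhrf1) to 16870 bp (Tet2) of summed exons, and the direction of all genes differed with this length. Among the 7190 tested genes with at least 4259 bp of exons, 28.2% rose and 44.0% fell with age, 28.0% rose and 15.4% fell with uridine against vehicle, and 45.8% rose and 32.3% fell with vehicle culture against no culture. Their median log2 fold changes were -0.11, 0.04 and 0.11. In these 3 comparisons the medians of the long genes had the sign of the members' medians and were smaller. The same held in uridine cultures against uncultured aged cells, at 0.17 with 48.6% higher and 26.6% lower, against 0.73 for the members. It also held in vehicle cultures against young cells, at -0.02 with 35.8% higher and 37.8% lower, against -0.40. Only in uridine cultures against young cells was the sign opposite, at 0.02 with 32.2% higher and 25.5% lower, against -0.18 for the members. The median of all genes there shifted by -0.041 with DESeq2 size factors and by -0.060 with upper quartile scaling. Either shift is larger than 0.02, so that sign rests on the scaling. The part of gene length in the members' values was not tested.

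**Figure D1:**
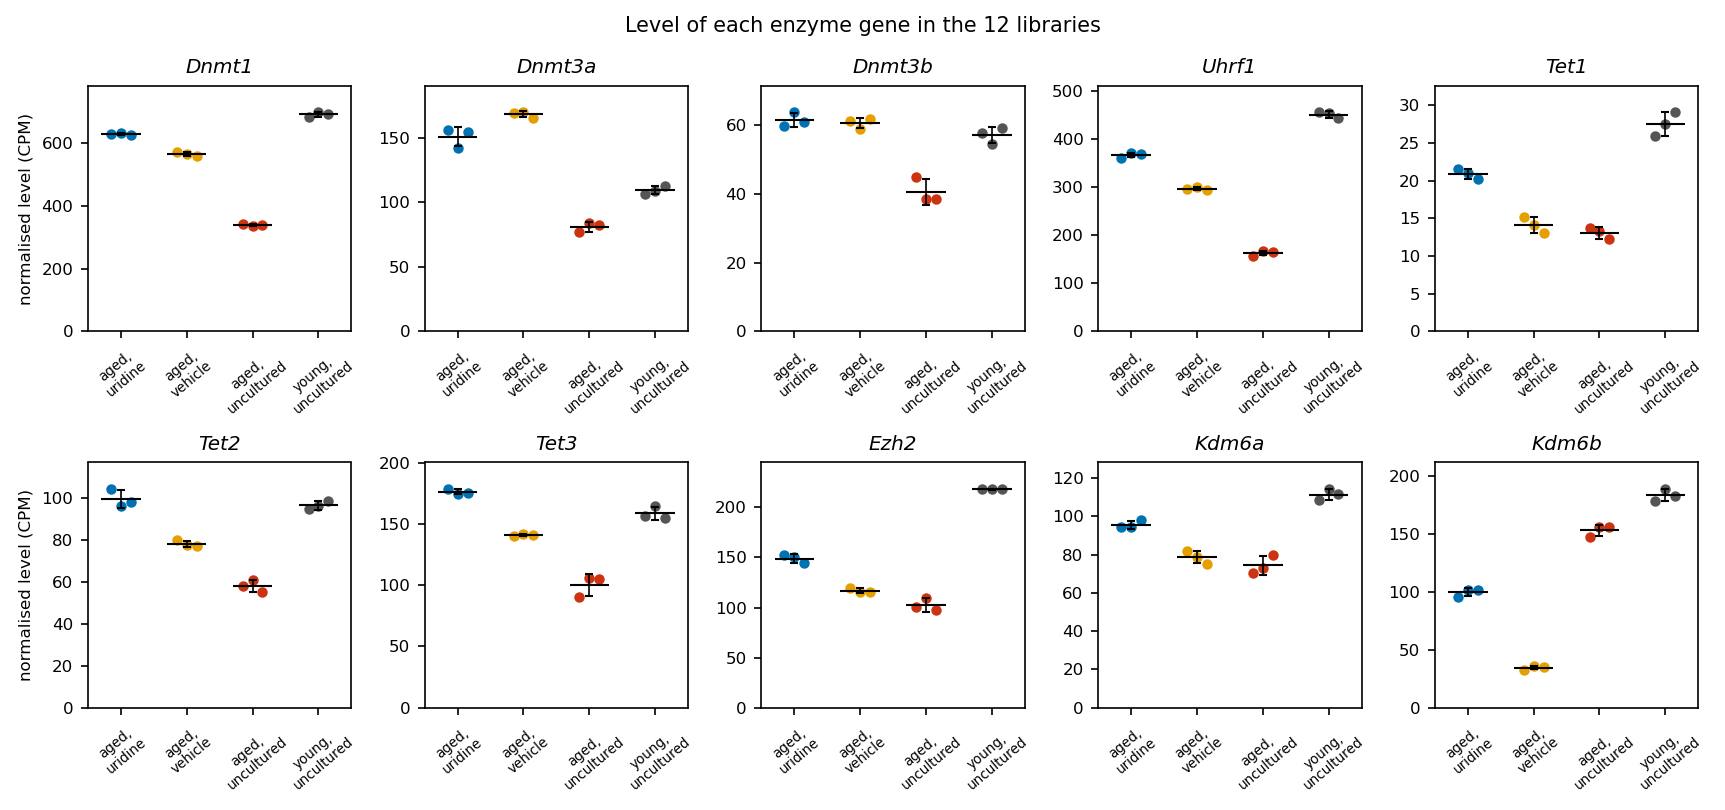
Level of the 10 enzyme genes in CPM (vertical axis, from 0) for the 4 groups along the horizontal axis. Points are the 3 libraries of a group, horizontal lines their mean and bars the SD. In 9 of the panels the uncultured aged libraries are at the bottom, alone or level with the vehicle libraries, and in the panel of Kdm6b the vehicle libraries are lowest.

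Per kb of exons Dnmt1 and Uhrf1 had the highest levels of the 10 in every group, nearest to the next gene in uncultured aged cells, where Uhrf1 was at 38.2 ± 1.17 and Kdm6b at 22.1 ± 0.708 CPM per kb (SD, n = 3). In young cells Uhrf1 was at 106 ± 1.57 and Dnmt1 at 93.9 ± 1.08 CPM per kb (SD, n = 3), followed by Ezh2 at 32.6 ± 0.0601 and Kdm6b at 26.4 ± 0.766 CPM per kb. Kdm6a, Dnmt3b, Tet3, Dnmt3a and Tet2 lay between 5.73 and 13.3 CPM per kb there, and Tet1 was lowest at 1.78 ± 0.104 CPM per kb. Tet1 was the lowest of the 10 in each of the 4 groups, at 1.35 ± 0.0439 CPM per kb in uridine cultures, 0.914 ± 0.0679 in vehicle cultures and 0.845 ± 0.0508 in uncultured aged cells. The group means of a member differed by 1.5 times (Kdm6a) to 5.28 times (Kdm6b) between its highest and lowest group, with a median of 2.06 times over the 10, against 1.53 times over 11070 genes of at least 5 CPM.

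**Figure D2:**
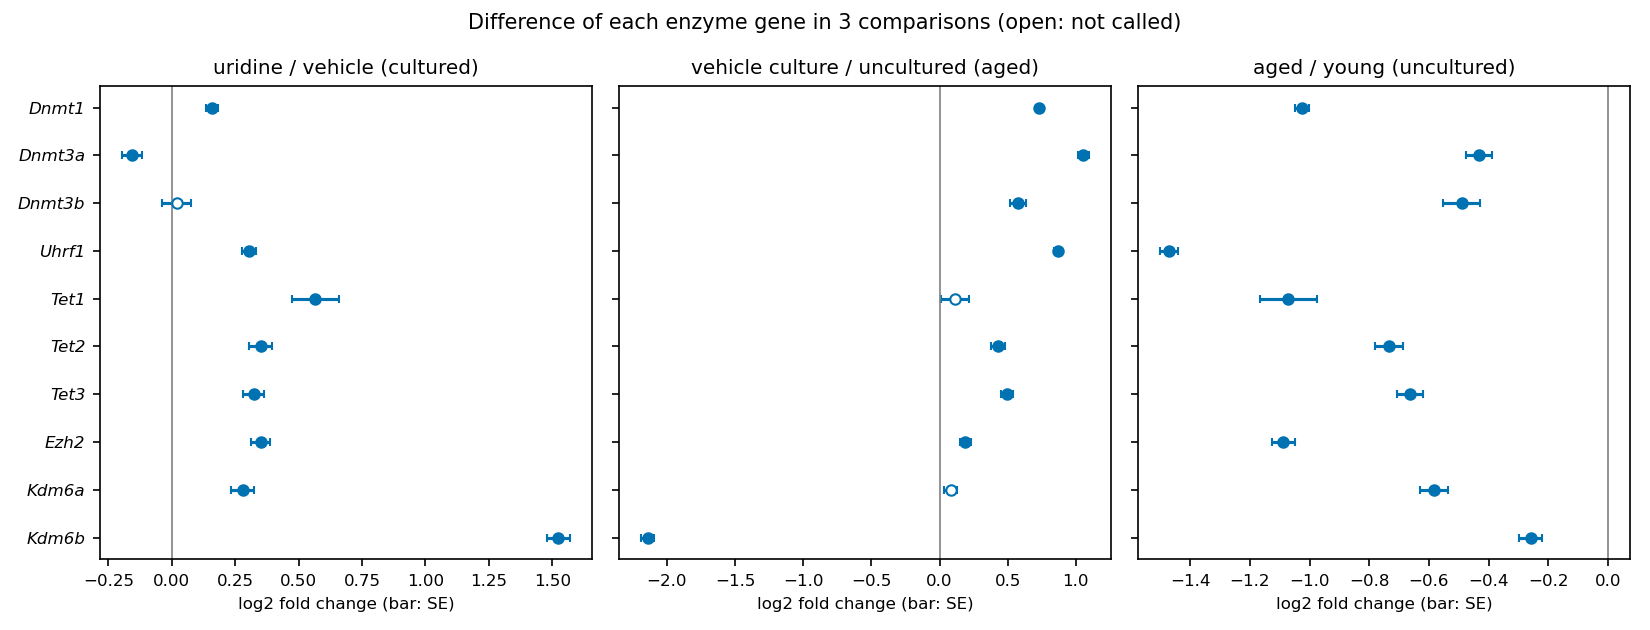
Log2 fold change of each enzyme gene (horizontal axis, with the SE as bar) for uridine over vehicle cultures, vehicle cultures over uncultured aged cells, and uncultured aged over young cells. Filled points were called and open points were not. All 10 points lie left of 0 in the comparison of age, and Kdm6b stands apart from the other 9 in both comparisons of cultures.

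The transcripts of both maintenance factors were lowest in uncultured aged cells. Uhrf1 (ENSMUSG00000001228, chromosome 17, 56303321 to 56323486, plus strand), which reads half-methylated DNA and recruits DNMT1, had 361, 370.1 and 368 CPM in the uridine cultures, 296, 301 and 293 CPM in the vehicle cultures, 157, 166 and 165 CPM in uncultured aged cells and 455, 453 and 443 CPM in young cells. The groups form 4 separate levels with no overlap, in the order young, uridine, vehicle and uncultured aged. With age Uhrf1 fell by 1.47 on the log2 scale (with SE 0.0291 and adjusted p = 7.24e-32 in edgeR), more than any other member. It was higher in vehicle cultures than in uncultured aged cells (log2 fold change 0.87, with SE 0.0294 and adjusted p = 9.93e-25 in edgeR) and higher with uridine than with vehicle (log2 fold change 0.30, with SE 0.0276 and adjusted p = 2.24e-11 in edgeR). Uridine cultures were below young cells (log2 fold change -0.30, with SE 0.0271 and adjusted p = 1.01e-11 in edgeR).

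Dnmt1 (ENSMUSG00000004099, chromosome 9, 20907209 to 20959888, minus strand) followed the same order of groups in smaller steps. It had 629.7, 632 and 628 CPM in uridine cultures, 571, 565 and 558 CPM in vehicle cultures, 344, 337 and 339 CPM in uncultured aged cells and 684, 699 and 695 CPM in young cells, again with no overlap. It fell by 1.03 with age on the log2 scale (with SE 0.0233 and adjusted p = 6.20e-30 in edgeR) and was 0.73 higher in vehicle cultures than in uncultured aged cells (edgeR adjusted p = 1.55e-25). The difference between uridine and vehicle cultures was small and past the threshold (log2 fold change 0.16, with SE 0.0225 and adjusted p = 5.08e-07 in edgeR), as was the remaining distance to young cells (log2 fold change -0.14, with SE 0.0224 and adjusted p = 3.20e-06 in edgeR).

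The 5 partners of maintenance methylation on the list all fell with age and all rose in uridine against vehicle cultures. Hells, a chromatin remodeller needed for DNA methylation, averaged 63.7 ± 2.62 CPM in uncultured aged and 141 ± 3.23 CPM in young cells (SD, n = 3 each), and the DNA ligase Lig1 153 ± 1.67 and 311 ± 1.49 CPM. Pcna, the replication clamp, Cdca7, the activator of HELLS, and Usp7, the deubiquitinase that binds DNMT1 and UHRF1, fell by 0.72, 0.72 and 0.36 on the log2 scale. With uridine against vehicle the log2 fold changes of the 5 ran from 0.08 (Pcna) to 0.28 (Lig1). In vehicle cultures against uncultured aged cells 4 were higher, led by Hells at 134 ± 0.538 CPM (log2 fold change 1.07), and Usp7 was lower by a small margin (-0.09).

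Genes of S phase, when DNA methylation is copied, moved with these genes in direction. All 28 on the list fell with age, with a median log2 fold change of -0.83, and 26 rose and 1 fell in vehicle cultures against uncultured aged cells, with a median of 0.45. With uridine against vehicle 15 rose and 13 were not called, with a median of 0.11. The DNA polymerase subunit Pole was at 132 ± 1.33, 107 ± 1.55, 65.0 ± 3.44 and 172 ± 2.33 CPM in uridine, vehicle, uncultured aged and young cells, and the replication helicase subunit Mcm5 at 404 ± 4.42, 317 ± 5.64, 266 ± 4.11 and 518 ± 10.6 CPM. Beside the median of this list with age, Uhrf1 (-1.47), Ezh2 (-1.09), Tet1 (-1.07) and Dnmt1 (-1.03) had larger log2 fold changes and the other 6 members smaller ones. The share of dividing cells was not measured, and its part in the values of the members was not tested.

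**Figure D3:**
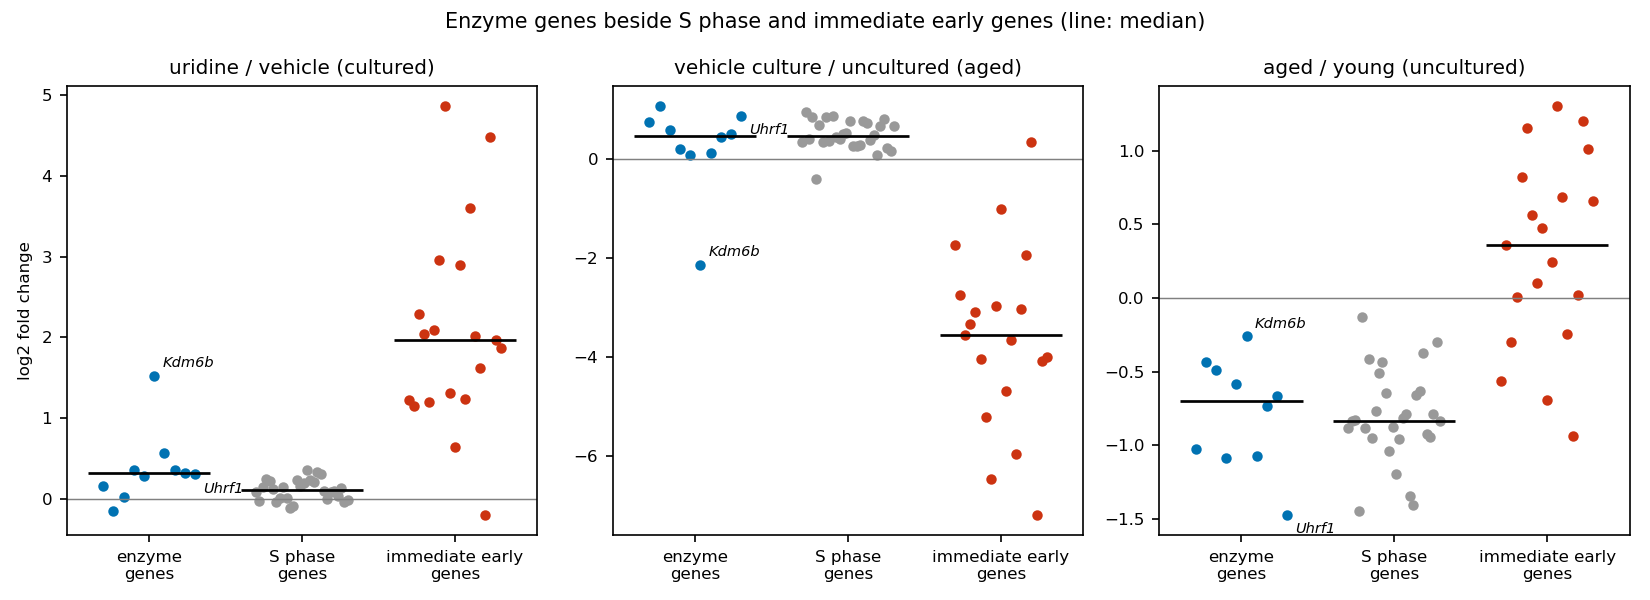
Log2 fold change (vertical axis) of the 10 enzyme genes, 28 S phase genes and 19 immediate early genes for uridine over vehicle cultures, vehicle cultures over uncultured aged cells, and aged over young uncultured cells. Each point is a gene and each line a list's median. Kdm6b lies between the other enzyme genes and most immediate early genes in the cultures, and Uhrf1 lies at the low end of the S phase genes with age.

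The promoter windows of Dnmt1, Uhrf1 and Ezh2 are shown because these 3 genes fell most with age together with Tet1, and hold a word bound by E2F factors, the regulators of S phase genes. RefSeq gave 14 windows for 9 of the members (250 bases before to 50 after a transcription start, build GRCm38.p6). Windows of Dnmt3a overlap in part (chr12:3806730-3807029 and chr12:3806910-3807209), so the 14 windows are not all separate stretches. Any of the words TTTCCCGC, TTTGGCGC, TTTCGCGC and TTTGCCGC, on either strand, was in 3 of these 14 windows, in 744 of all 32851 windows (2.26%) and in 8 of the 23 windows of the S phase list. The 3 were 1 of the 3 windows of Dnmt1, 1 of the 2 of Uhrf1 and the single window of Ezh2, and the words overlap no match of the other motifs searched. In that order they had 69.7, 68.3 and 64.3% GC and 33, 33 and 31 CpG dinucleotides. All windows had medians of 52.7% GC and 7 CpG, and the 14 ranged over 51.3 to 82.3% GC. The E2F words are rich in GC, and the shares were not matched for base composition. The windows are given 5′ to 3′ on the strand of the gene, with the E2F words in capitals, for Dnmt1 (chr9:20952574-20952873, minus strand), Uhrf1 (chr17:56304063-56304362, plus strand) and Ezh2 (chr6:47594981-47595280, minus strand), and beside them the window of Tet1 (chr10:62887275-62887574, minus strand), which holds none of the words.
Dnmt1: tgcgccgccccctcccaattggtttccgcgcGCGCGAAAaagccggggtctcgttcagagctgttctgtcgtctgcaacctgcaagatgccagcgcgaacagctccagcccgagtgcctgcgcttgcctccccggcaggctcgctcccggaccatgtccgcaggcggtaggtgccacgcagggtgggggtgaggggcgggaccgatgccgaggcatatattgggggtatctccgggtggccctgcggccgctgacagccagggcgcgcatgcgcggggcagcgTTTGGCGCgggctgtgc
Uhrf1: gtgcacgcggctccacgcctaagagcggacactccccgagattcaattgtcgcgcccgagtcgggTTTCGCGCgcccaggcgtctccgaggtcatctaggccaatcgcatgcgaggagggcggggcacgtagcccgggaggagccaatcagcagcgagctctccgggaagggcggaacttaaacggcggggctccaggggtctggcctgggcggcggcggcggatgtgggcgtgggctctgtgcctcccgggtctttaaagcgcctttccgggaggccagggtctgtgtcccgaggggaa
Ezh2: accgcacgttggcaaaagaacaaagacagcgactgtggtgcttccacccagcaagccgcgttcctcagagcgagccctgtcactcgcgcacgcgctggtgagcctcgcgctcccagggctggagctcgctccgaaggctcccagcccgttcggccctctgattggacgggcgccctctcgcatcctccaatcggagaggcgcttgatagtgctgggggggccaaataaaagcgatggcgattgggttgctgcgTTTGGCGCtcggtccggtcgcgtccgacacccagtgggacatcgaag
Tet1: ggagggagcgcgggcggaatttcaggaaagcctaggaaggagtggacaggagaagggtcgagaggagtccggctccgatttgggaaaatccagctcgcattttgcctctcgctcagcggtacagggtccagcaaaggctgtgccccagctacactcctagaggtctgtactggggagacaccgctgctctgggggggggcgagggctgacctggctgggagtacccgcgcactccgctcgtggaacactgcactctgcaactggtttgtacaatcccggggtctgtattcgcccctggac
The Dnmt1 window has TTTCGCGC read on the opposite strand from position -219, and TTTGGCGC from position 34 after the start. The Uhrf1 window has TTTCGCGC from position -185, and the Ezh2 window TTTGGCGC from position 4. CCAAT, the box bound by NF-Y, was found on either strand 3, 2 and 3 times in these Dnmt1, Uhrf1 and Ezh2 windows and in 37.4% of all windows. It was also found in windows without an E2F word, 5 times in another of Dnmt1, 3 times in the other of Uhrf1 and 1 time in that of Tet3. The remaining windows of the members, that of Tet1 among them, held none. The AP-1 word TGANTCA (7.81% of all windows), the cyclic AMP response word TGACGTCA (1.79%) and the STAT word TTCNNNGAA (8.30%) were in none of the 14 windows. TTTGAA, the cell cycle homology word, was in 1 window of Dnmt1 and that of Dnmt3b (17.9% of all windows), and the GC box GGGCGG in 11 of the 14 (35.7% of all). A match is a description of the letters in a window, not of a bound site.

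The de novo methyltransferases differed from each other in the cultures. Dnmt3a (ENSMUSG00000020661, chromosome 12, 3806007 to 3914443, plus strand) had 156, 142 and 155 CPM in uridine cultures, 169.7, 169.9 and 166 CPM in vehicle cultures, 76.8, 83.7 and 82.7 CPM in uncultured aged cells and 107, 109 and 113 CPM in young cells. Both cultures stood above both uncultured groups, and no groups overlapped. Dnmt3a fell by 0.43 with age on the log2 scale (with SE 0.0432 and adjusted p = 5.75e-11 in edgeR) and was 1.05 higher in vehicle cultures than in uncultured aged cells (edgeR adjusted p = 1.79e-22), the largest rise of the 10. It was the single member to fall with uridine against vehicle (log2 fold change -0.16, with SE 0.0388 and adjusted p = 0.00138 in edgeR).

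Dnmt3b (ENSMUSG00000027478, chromosome 2, 153649450 to 153687730, plus strand) ranged over 59.7 to 63.7 CPM in uridine cultures, 58.8 to 61.8 CPM in vehicle cultures, 38.4 to 45.0 CPM in uncultured aged cells and 54.5 to 59.3 CPM in young cells. The uncultured aged libraries lay below all others (log2 fold change -0.49, with SE 0.0620 and adjusted p = 1.31e-08 in edgeR against young cells). Uridine and vehicle cultures were not called different (log2 fold change 0.02, with SE 0.0575 and adjusted p = 0.833 in edgeR), nor was either from young cells (log2 fold changes 0.10 and 0.09, edgeR adjusted p = 0.136 and 0.198). Dnmt3c, a rodent copy of Dnmt3b that acts in the male germ line, had 17, 17, 11 and 46 counts over the 3 uridine, vehicle, uncultured aged and young libraries, and reads shared between the copies may have been assigned to either or dropped. Dnmt3l, the inactive partner of the de novo enzymes, averaged at most 1.66 CPM in any group.

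Per kb, the level of Dnmt3b over that of Dnmt3a was 1.33 ± 0.113 in uridine cultures, 1.17 ± 0.0440 in vehicle cultures, 1.64 ± 0.234 in aged uncultured cells and 1.70 ± 0.0657 in young cells (SD, n = 3 each). Ratios above 1 rest on the summed exon lengths, 16642 bp for Dnmt3a and 5106 bp for Dnmt3b. In CPM Dnmt3a was the higher in every group, at 151 against 61.4, 168 against 60.6, 81.1 against 40.6 and 109 against 57.1 in the same order. The ratios of both cultures lay below those of both uncultured groups with no overlap, and those of uncultured aged and young cells overlapped. Dnmt1 over Dnmt3a was 9.42 ± 0.511 in uridine cultures, 7.57 ± 0.0564 in vehicle cultures, 9.48 ± 0.542 in aged uncultured cells and 14.3 ± 0.355 in young cells. With 3 libraries against 3 an exact permutation test, two-sided, cannot go below p = 0.1, which every pair of groups without overlap reached, and over the 30 tests of 5 ratios the smallest adjusted p was 0.130.

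**Figure D4:**
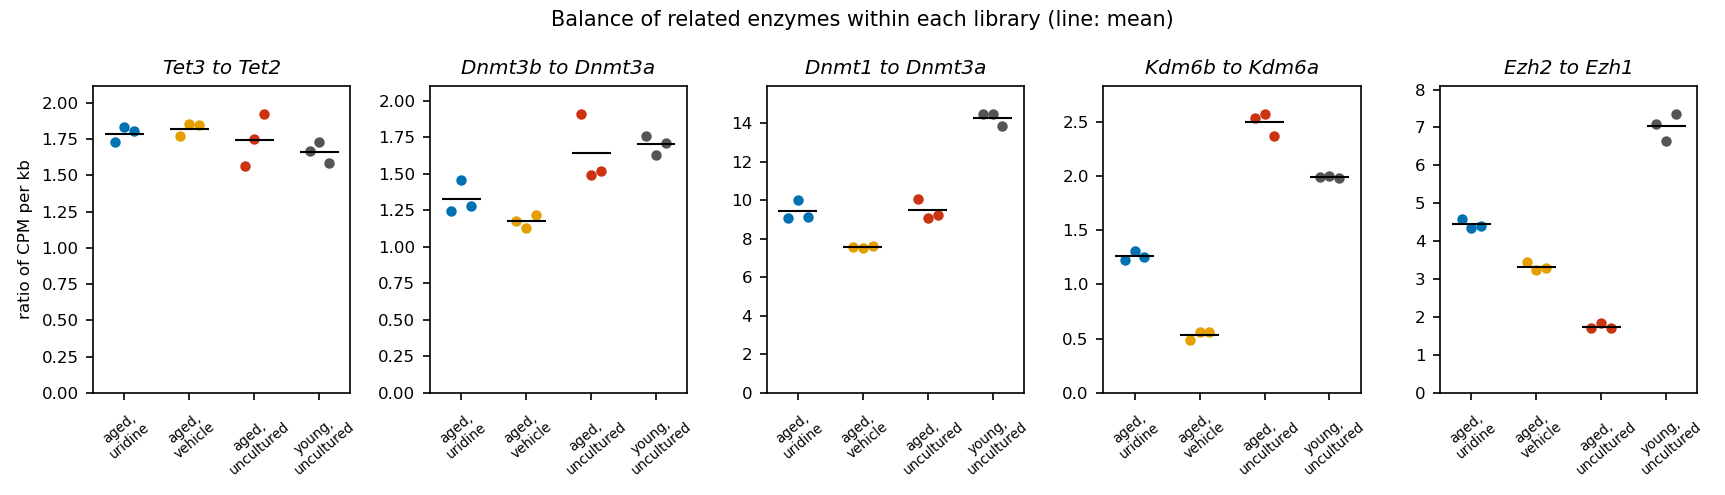
Ratio of the levels per kb of 5 pairs of related genes (vertical axis, from 0) in each library of the 4 groups, with the mean as a line. The Ezh2 to Ezh1 and the Kdm6b to Kdm6a ratios form 4 separate levels, and the Tet3 to Tet2 ratio lies between 1.56 and 1.92 in all 12 libraries.

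The 3 TET genes were all lower with age and all higher with uridine than with vehicle. Tet1 (ENSMUSG00000047146, chromosome 10, 62804570 to 62908996, minus strand) had 21.5, 21.1 and 20.2 CPM in uridine cultures, 15.1, 14.2 and 13.0 CPM in vehicle cultures, 13.7, 13.3 and 12.2 CPM in uncultured aged cells and 25.9, 27.5 and 29.1 CPM in young cells. The vehicle and uncultured aged libraries overlapped and were not called different (log2 fold change 0.11, with SE 0.101 and adjusted p = 0.325 in edgeR), and the uridine and young libraries each stood clear of them. Tet1 fell by 1.07 with age on the log2 scale (with SE 0.0946 and adjusted p = 2.55e-12 in edgeR), rose by 0.57 with uridine against vehicle (with SE 0.0924 and adjusted p = 5.16e-06 in edgeR), the largest rise there after Kdm6b, and stayed below young cells in uridine cultures (-0.39, edgeR adjusted p = 2.42e-04).

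Tet2 (ENSMUSG00000040943, chromosome 3, 133463679 to 133545139, minus strand) had 104, 96.1 and 98.3 CPM in uridine cultures, 79.9, 77.5 and 77.1 CPM in vehicle cultures, 58.2, 61.0 and 55.0 CPM in uncultured aged cells and 94.7, 96.2 and 98.9 CPM in young cells. The uridine and young libraries overlapped and were not called different (log2 fold change 0.05, with SE 0.0439 and adjusted p = 0.414 in edgeR), and the vehicle and uncultured aged libraries each lay lower without overlap. It fell by 0.73 with age on the log2 scale (edgeR adjusted p = 5.95e-16), rose by 0.43 in vehicle culture against no culture (edgeR adjusted p = 9.30e-10) and rose by 0.35 with uridine against vehicle (edgeR adjusted p = 5.55e-08).

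Tet3 (ENSMUSG00000034832, chromosome 6, 83362373 to 83459084, minus strand) ranged over 174 to 179 CPM in uridine cultures, 139.9 to 142 CPM in vehicle cultures, 90.0 to 106 CPM in uncultured aged cells and 155 to 165 CPM in young cells. Its log2 fold changes were -0.66 with age, 0.49 with vehicle culture against no culture and 0.32 with uridine against vehicle, close to those of Tet2. Uridine cultures lay above young cells by 0.15 on the log2 scale (with SE 0.0405 and adjusted p = 0.00216 in edgeR), which with upper quartile scaling was 0.09 (edgeR adjusted p = 0.0545) and not called. Among the 45 pairs of members Tet2 and Tet3 had the most similar profile over the 12 libraries, with a root mean square difference of 0.0867 on the log2 scale after each gene was centred on its mean. The next was Tet1 with Ezh2 at 0.101, and the largest was Dnmt3a with Kdm6b at 1.28.

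Genes that process oxidised methylcytosine or supply TET cofactors moved in both directions. Of 15 tested, 6 rose and 7 fell with age, 6 rose and 5 fell with vehicle culture against no culture, and 2 rose and 2 fell with uridine against vehicle, with medians of -0.04, -0.02 and -0.01 on the log2 scale. Idh1, which makes the 2-oxoglutarate that TET and KDM6 enzymes use, averaged 101 ± 1.33 CPM in uridine cultures, 123 ± 2.19 CPM in vehicle cultures, 47.3 ± 0.269 CPM in uncultured aged cells and 66.9 ± 2.72 CPM in young cells. Neil1, a DNA glycosylase, averaged 106 ± 1.73 CPM in uncultured aged and 19.4 ± 0.794 CPM in young cells (log2 fold change 2.44).

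Ezh2 (ENSMUSG00000029687, chromosome 6, 47530139 to 47595341, minus strand) was highest in young cells by a wide margin. It had 152, 150.3 and 144 CPM in uridine cultures, 119, 115 and 116 CPM in vehicle cultures, 100.3, 109.9 and 97.4 CPM in uncultured aged cells and 218, 218 and 218 CPM in young cells. No groups overlapped, and the vehicle and uncultured aged libraries were closest to each other. Ezh2 fell by 1.09 with age on the log2 scale (with SE 0.0389 and adjusted p = 9.43e-24 in edgeR), was 0.19 higher in vehicle cultures than in uncultured aged cells (edgeR adjusted p = 9.71e-05) and rose by 0.35 with uridine against vehicle (edgeR adjusted p = 1.78e-09). Uridine cultures stayed 0.55 below young cells on the log2 scale (edgeR adjusted p = 2.49e-15).

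Ezh1, the other catalytic subunit of PRC2, moved the opposite way with age. It averaged 37.4 ± 1.04 CPM in uridine cultures, 39.1 ± 0.428 CPM in vehicle cultures, 65.3 ± 1.43 CPM in uncultured aged cells and 34.6 ± 1.82 CPM in young cells, a rise with age of 0.92 on the log2 scale (edgeR adjusted p = 1.13e-15). Per kb, Ezh2 over Ezh1 was 1.71, 1.83 and 1.70 in the uncultured aged libraries and 7.08, 6.65 and 7.36 in the young ones. The ratio was 4.44 ± 0.127 in uridine cultures and 3.33 ± 0.101 in vehicle cultures, so that each group formed its own level (exact permutation p = 0.1 for each pair of groups, the smallest possible).

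Of the 11 other PRC2 genes 7 fell, 3 rose and 1 was not called with age, with a median of -0.25 on the log2 scale. Suz12, a core scaffold, averaged 153 ± 2.69 CPM in uncultured aged and 243 ± 1.48 CPM in young cells, and Eed, which reads H3K27 methylation, 63.6 ± 2.96 and 75.6 ± 6.54 CPM. Phf1, an accessory subunit that binds H3K36 methylation, rose with age by 2.04 on the log2 scale, at 113 ± 6.56 CPM in uncultured aged and 27.4 ± 1.28 CPM in young cells. In vehicle cultures against uncultured aged cells 9 rose, while Phf1 and Ezh1 fell by 2.62 and 0.74. With uridine against vehicle Suz12 (0.21) and Mtf2 (0.11) rose, Epop fell (-0.29) and 8 were not called, among them Eed at 74.3 ± 2.66 CPM in uridine and 75.5 ± 2.28 CPM in vehicle cultures.

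**Figure D5:**
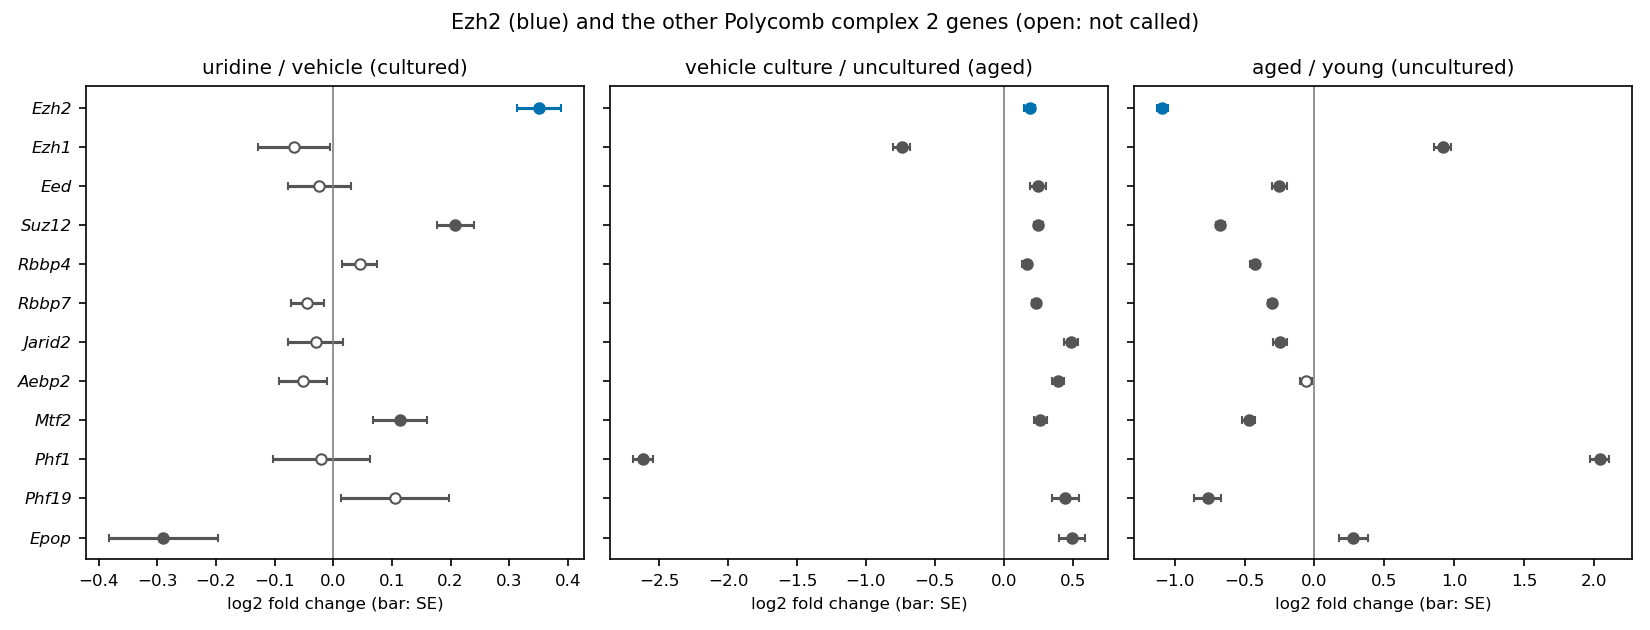
Log2 fold change (horizontal axis, with the SE as bar) of Ezh2, in blue, and 11 other genes of Polycomb complex 2 for uridine over vehicle cultures, vehicle cultures over uncultured aged cells, and aged over young uncultured cells. Filled points were called. Ezh2 is furthest left with age and furthest right with uridine, and Ezh1 and Phf1 stand opposite to most others with age.

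Kdm6a and Kdm6b, which remove the mark that EZH2 places, behaved differently in culture. Kdm6b (ENSMUSG00000018476, chromosome 11, 69398508 to 69413675, minus strand), a demethylase known to be induced by inflammatory stimuli, had 96.1, 102 and 102 CPM in uridine cultures, 33.0, 36.3 and 35.0 CPM in vehicle cultures, 148, 156 and 156 CPM in uncultured aged cells and 179, 189 and 183 CPM in young cells. The 4 groups were separate, and it was the one member with both cultures below both uncultured groups. Vehicle cultures stood 2.14 below uncultured aged cells on the log2 scale (with SE 0.0458 and adjusted p = 4.40e-31 in edgeR), and uridine cultures 1.52 above vehicle cultures (with SE 0.0463 and adjusted p = 3.66e-25 in edgeR). Uridine cultures were still 0.62 below uncultured aged cells (edgeR adjusted p = 4.71e-16). The fall with age was the smallest of the 10, at -0.26 (with SE 0.0388 and adjusted p = 3.67e-07 in edgeR).

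The immediate early genes, induced rapidly by many stimuli, moved in the direction of Kdm6b in both comparisons of cultures. Of 19, 18 rose and 1 fell with uridine against vehicle (median 1.97), and 1 rose and 18 fell with vehicle culture against no culture (median -3.56). Fosb, a subunit of AP-1, averaged 933 ± 10.8 CPM in uridine cultures, 32.1 ± 1.35 CPM in vehicle cultures, 2844 ± 70.2 CPM in uncultured aged cells and 2650.3 ± 26.9 CPM in young cells. With age the list was divided, with 12 that rose and 5 that fell (median 0.36), whereas Kdm6b fell. Kdm6bos, a gene on the opposite strand that shares 286 bp of exons with Kdm6b, had 122, 8, 194 and 244 counts over the uridine, vehicle, uncultured aged and young libraries. Its largest library count was 86, against at least 620 for Kdm6b, and since the use of strand in the counting is not given, reads of the pair cannot be told apart.

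Kdm6a (ENSMUSG00000037369, chromosome X, 18162575 to 18279936, plus strand), the X-linked demethylase, ranged over 94.2 to 98.0 CPM in uridine cultures, 75.3 to 81.9 CPM in vehicle cultures, 70.2 to 79.6 CPM in uncultured aged cells and 108 to 114 CPM in young cells. It fell by 0.58 with age on the log2 scale (with SE 0.0462 and adjusted p = 1.49e-13 in edgeR) and rose by 0.28 with uridine against vehicle (with SE 0.0452 and adjusted p = 4.28e-06 in edgeR). Vehicle cultures and uncultured aged cells overlapped and were not called different (log2 fold change 0.08, with SE 0.0477 and adjusted p = 0.120 in edgeR), but a rise was called without vehicle replicate 3 (log2 fold change 0.12, edgeR adjusted p = 0.0412) and without aged replicate 3 (0.13, edgeR adjusted p = 0.0190). Uty, its copy on the Y chromosome, had 0 counts in all 12 libraries, which allows up to 0.05 CPM in uridine cultures and 0.0683 CPM in uncultured aged cells.

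The balance of the demethylases was turned round in vehicle cultures. Per kb, the Kdm6b to Kdm6a ratio was 1.23, 1.31 and 1.25 in the uridine libraries, 0.485, 0.556 and 0.560 in the vehicle libraries, 2.54, 2.57 and 2.37 in the uncultured aged libraries and 1.99, 2.0 and 1.98 in the young ones. Kdm6a was the higher of the pair in the 3 vehicle libraries alone, and the 4 groups did not overlap (exact permutation p = 0.1 for each pair of groups). Of 8 tested genes of the complex with MLL3 and MLL4, in which KDM6A works, 6 fell and 2 were not called with age (median -0.33), and 4 rose and 4 were not called with uridine against vehicle (median 0.13). Kmt2d (MLL4), a methyltransferase of enhancer histones, averaged 402 ± 13.4 CPM in uridine cultures, 278 ± 2.13 CPM in vehicle cultures, 284 ± 7.58 CPM in uncultured aged cells and 450.3 ± 7.33 CPM in young cells, and Paxip1 (PTIP), a subunit with roles in DNA repair, fell by 0.73 with age and rose by 0.20 with uridine on the log2 scale.

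The cultures can also be set beside the young and the uncultured aged cells, although age and culture cannot be told apart against young cells. In uridine cultures against uncultured aged cells 9 members rose and 1 (Kdm6b) fell, where 35.8% of all genes rose and 32.1% fell. Against young cells 2 rose (Dnmt3a and Tet3), 6 fell and 2 (Dnmt3b and Tet2) were not called in uridine cultures, where 26.2% and 23.3% of all genes rose and fell, with a median of -0.18 on the log2 scale. In vehicle cultures 1 rose (Dnmt3a), 8 fell and 1 (Dnmt3b) was not called against young cells (all genes 33.3% and 32.5%), with a median of -0.40. Kdm6b had the largest fall from young cells in both, at -0.88 with uridine and -2.40 with vehicle. These comparisons share their young, aged or culture libraries with those above.

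The genes most like each member over the 12 libraries were sought among 10160 protein-coding genes of at least 5 CPM, by the root mean square difference of centred log2 CPM, which has a median of 0.329 (Dnmt3b) to 0.985 (Kdm6b) for a member against all genes searched. Ctnna1 (0.0338) and Flna (0.0421), which encode proteins that link membranes to actin, were nearest to Dnmt1. Bcl2l11 (0.0482), a promoter of cell death, and Pole (0.0669) and Cdc6 (0.0699) of DNA replication were nearest to Uhrf1, and Lig1 (0.0528) and Smarca4 (0.0538), the ATPase of a chromatin remodeller, to Ezh2. Smarca4 (0.0900) was also nearest to Tet1, Tnks (0.0505) and Polr2a (0.0506) to Tet2, and Rad54l2 (0.0579) to Tet3. Tor1aip2 (0.0426) was nearest to Dnmt3a, Xpot (0.0606) to Dnmt3b and Rcor1 (0.0392), a corepressor of histone deacetylase complexes, to Kdm6a. Kdm6b had the most distant neighbours in absolute terms, Rgs2 (0.111), Zbtb10 (0.127) and Scnn1a (0.151). The distance is not scaled to a gene's range, which was widest for Kdm6b, as was its median distance to all genes searched (0.985). Rgs2, a regulator of G protein signals, averaged 124, 52.2, 212 and 266 CPM in uridine, vehicle, uncultured aged and young cells.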

How the data were processed

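Gene expression was measured by sequencing of poly-T purified mRNA as paired reads of 150 bp, with HISAT2 2.0.5 as aligner and mm10 as build, per the labels' protocols and the submitters' processing notes. The authors deposited raw read counts per gene for 54532 Ensembl IDs. No source used here names the counting program, its annotation or its use of strand. Symbols, positions and exon lengths came from GENCODE M21 (GRCm38, the mm10 build), which matched 54409 IDs and left 123 unmatched, and promoter windows from RefSeq (GRCm38.p6). Groups were taken from the sample titles, and 0 value columns were left unused.

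From the deposited counts, genes were kept by filterByExpr (16675), scaled by TMM and fitted with 1 mean per group over all 12 libraries in edgeR 4.0.16 (R 4.3.3; quasi-likelihood F-test, Benjamini-Hochberg over all genes tested, threshold 0.05; 8 residual and 26.5 prior degrees of freedom, common biological coefficient of variation 0.0438). The prior degrees of freedom are borrowed from the spread of all genes, so a p-value does not rest on a gene's own libraries alone. The SE of a log2 fold change is its size divided by the square root of F. Library pairs within a group differed beyond sampling noise (chi-square over degrees of freedom 2.27 to 3.94). Likeness used log2(CPM + 0.1), and ratios of levels per kb an exact permutation test, two-sided. Floors are 3 counts over a group, and cover counting error only. Alternatives were DESeq2 1.42.0, limma voom 3.58.1, other scalings and filters, subsets of genes or libraries and a replicate block.

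The members and lists were chosen with earlier results of these data known. All 10 members were named, and of each list up to 4 called genes with the smallest p per comparison, any gene of a list of at most 5, and any paralog. Marker genes were named from their lists, and Eed and any other gene outside the rule after their values were seen.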

Additional observations from a re-analysis of the deposited data

How the results depend on the processing

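The 10 members were tested in 6 comparisons, and 54 of these 60 results were called. Over 960 recomputed member results under the alternatives, 3 changed their side of the threshold: Kdm6a between vehicle cultures and uncultured aged cells without vehicle replicate 3 or without aged replicate 3, and Tet3 between uridine cultures and young cells with upper quartile scaling. No called result changed sign, and 5 recomputed values of uncalled ones did (Dnmt3b between cultures, Tet2 between uridine cultures and young cells). None of 192 counts of called members or genes moved by over 1.5 times. The 10 members called with age stayed 10 under each of the 16 alternatives, immunoglobulin genes left out among them, and 9 stayed 9 for uridine against vehicle. For vehicle cultures against uncultured aged cells the count was 8 to 9, and for uridine cultures against young cells 7 to 8. The alternatives shifted the median of all genes by -0.0682 to 0.0295 on the log2 scale, against a log2 fold change of 0.15 for Tet3 in the comparison above.

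Replicate numbers do not mark pairs in the labels, and same-numbered libraries did not deviate together (correlations from -0.153 to 0.163 over 4920 genes). With the replicate block 10 members were called with age, 9 for uridine against vehicle and 8 for vehicle culture against no culture, and 10768, 6250 and 11667 genes in all.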

Other observations

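Genes of Polycomb complex 1 and methyl-CpG readers moved in both directions. Of 20 genes of Polycomb complex 1, only some forms of which bind methylated H3K27, 9 rose and 8 fell with age (median 0.03 on the log2 scale). With vehicle culture against no culture 9 rose and 8 fell, and with uridine against vehicle 6 rose and 2 fell. Calls were by edgeR's quasi-likelihood test at an adjusted p under 0.05. Cbx7, a chromodomain subunit known from stem cells, averaged 17.4 ± 0.736 CPM in vehicle cultures, 223 ± 5.55 CPM in uncultured aged and 23.1 ± 0.782 CPM in young cells (SD, n = 3 each), a rise with age of 3.27 (edgeR adjusted p = 1.24e-33). Bmi1, another subunit needed by stem cells, rose by 0.62 and Cbx2 fell by 1.54 with age. Of 9 methyl-CpG readers 5 rose and 3 fell with age, among them Zbtb4, which rose by 3.16, and Uhrf2, the homologue of Uhrf1, which fell by 0.78. Uhrf2 was the 1 reader to rise with uridine against vehicle (0.22), with 8 not called. In the uncultured aged libraries all 7 plasma cell markers were called higher than in young cells, and 6 of 10 B cell markers were higher and 4 lower. Their part in these values was not tested.

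Of 13 genes of the cycle that supplies methyl groups 4 rose and 7 fell with age (median -0.32), 9 rose and 1 fell with vehicle culture against no culture (median 0.37), and 3 rose and 5 fell with uridine against vehicle (median -0.10). Mat2a, which makes S-adenosylmethionine, the methyl donor of DNMT and EZH2 enzymes, averaged 278 ± 3.51 CPM in uridine cultures, 322 ± 3.46 CPM in vehicle cultures, 185 ± 6.85 CPM in uncultured aged cells and 157 ± 7.99 CPM in young cells.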
